A study of Mus musculus with 6 samples.

Results

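The genes described here build and run the machinery that separates chromosomes, together with other kinesins, many of them motors of cargo transport. The set covers kinesin motors, centromere and kinetochore proteins, spindle checkpoint components, mitotic kinases and condensin. These genes were taken from the count table by symbol (Kif followed by a digit, the Cenp family, Aurora kinases, the Bub and Mad2l genes, the NDC80, SKA and chromosomal passenger subunits, Plk1, Plk4, Nek2, Ttk, Tpx2, and the condensin subunits), which gave 92 genes among 21604 symbols. The cells were RAW 264.7, a macrophage-like mouse line that grows from 1 tumour-derived population, labelled wild type. Both groups were exposed for 24 h to lipopolysaccharide (LPS), a Gram-negative endotoxin and strong macrophage stimulus, at 100 ng/mL. The LPS group received nothing further, and the other, called the PE-CUR group here, was also given PE-CUR at 2 mg/mL, a curcumin-loaded Pickering emulsion (oil and water held together by solid particles). Each group had 3 libraries of bulk RNA sequencing. Values are given for replicates 1, 2 and 3 in that order, or as mean ± SD (n = 3). Since every comparison is of the PE-CUR group with the LPS group, the curcumin and its emulsion carrier cannot be told apart, and neither group shows untreated cells.

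A cell enters mitosis once cyclin B and its kinase are active, and Aurora and Polo kinases then mature the centrosomes and the spindle. Condensin compacts the chromosomes, the centromere histone CENP-A and its partners build the inner kinetochore, and the outer kinetochore grips microtubules. The spindle checkpoint holds the cell before anaphase until every kinetochore is attached, and mitotic kinesins move chromosomes, cross-link the spindle and complete cytokinesis. Most of these genes are transcribed in G2 and M phase. Many kinesins outside this set carry vesicles, organelles and ciliary cargo in cells whether or not they divide, and some have other roles.

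Total counts were 28530750 to 35276533 per library, and 84 of the 92 genes passed the filter on low counts. The labels call the cells bone marrow macrophages but also name them RAW 264.7, the tumour-derived line. Macrophage markers cannot tell that line from primary macrophages. Of these markers, 10 of 10 averaged at least 1 CPM (counts scaled to a common library size), with a summed level of 10563 to 11158 CPM in LPS and 9114 to 9788 CPM in the PE-CUR group. Among markers of other cell types the summed ranges of the 2 groups were 52.4 to 69.7 and 0.0589 to 88.2 CPM for hepatocytes, 97.2 to 106 and 120 to 137 CPM for neurons and glia, 31.8 to 38.0 and 31.1 to 37.3 CPM for muscle, 2.12 to 3.41 and 1.48 to 15.4 CPM for epithelium and fibroblasts, and at most 0.387 CPM for lymphocytes. Of the 10 markers on each list, 10 were in the table for hepatocytes, 8 for neurons and glia, 7 for muscle, 9 for epithelium and fibroblasts and 5 for lymphocytes, and 3, 7, 5, 7 and 5 of these averaged under 1 CPM. No listed marker was at 0 counts in all 6 libraries, and the part of these markers in the results was not tested.

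One library in each group stood apart for part of these genes. LPS replicate 1 exceeded the mean of the other LPS libraries by more than 1.5 times for 6 of the 84 tested genes (Cenpf, Cenpe, Kif20b, Kif18a, Knl1 and Smc4). PE-CUR replicate 2 exceeded the mean of its group's other libraries by that factor for the same 6 and for Bub1, Smc2, Ncapg, Cenpj, Cenpk and Ttk, 12 in all. The largest ratios were those of Cenpf, 3.57 in LPS replicate 1 and 3.59 in PE-CUR replicate 2. These genes have AT-rich transcripts: the median GC content was 40.0% for the 12 and 48.4% for the other tested members. Across the 84 genes, Spearman's rho between GC content and the library ratio was -0.48 in LPS replicate 1 and -0.65 in PE-CUR replicate 2, and over 12192 tested genes with a known GC content it was -0.31 and -0.43. With transcript length in place of GC content, rho was 0.09 and 0.10 across the 84 genes and 0.20 and 0.06 over the 12192. In the 64 genes other than the kinesins outside the mitotic list, rho with length was 0.37 and 0.41. The genes share their libraries in these correlations and are not independent replicates. LPS replicate 3 also stood low: it was the lowest LPS library for 54 of the 64 tested genes other than the kinesins outside the mitotic list. PE-CUR replicate 2 was the highest of its group for 36 of those 64. The part of GC content and length in the fold changes was not tested beyond the offset fit given with the processing alternatives.

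**Figure D1:**
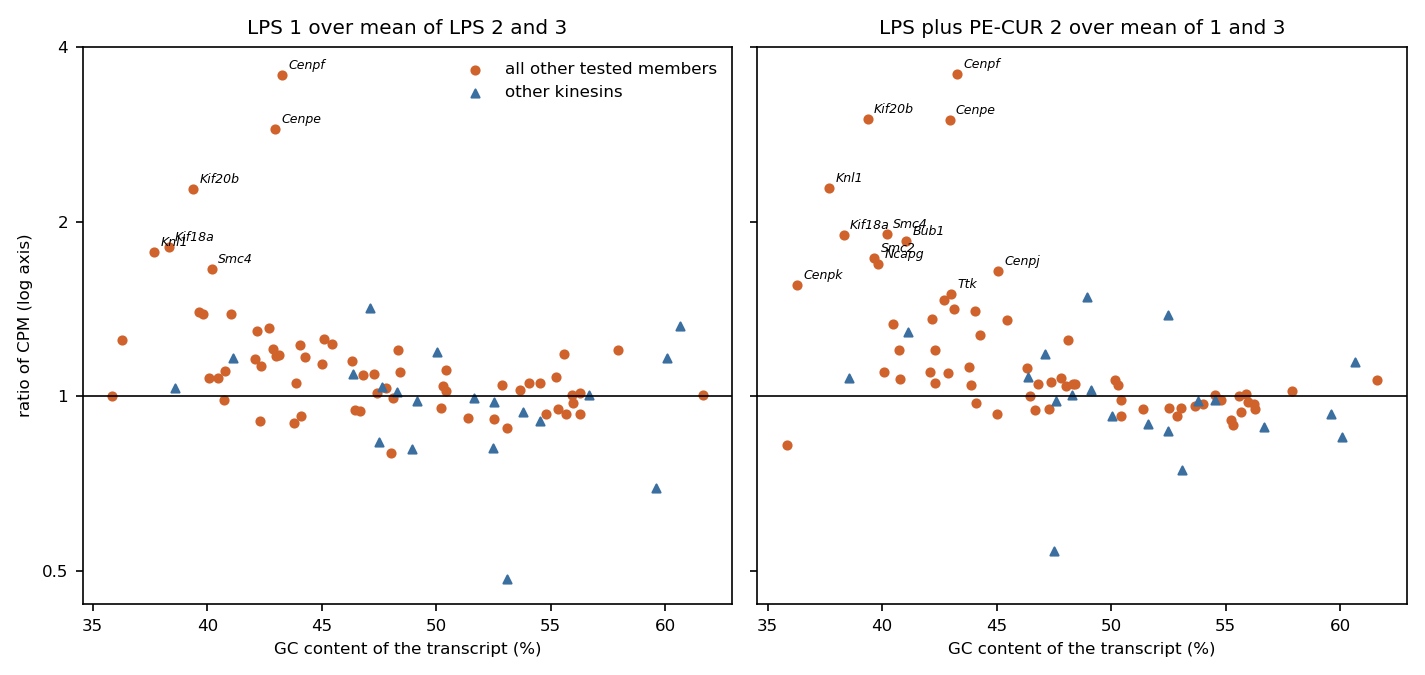
Ratio of LPS replicate 1 to the mean of the other LPS libraries and of PE-CUR replicate 2 to the mean of the other PE-CUR libraries (vertical axes) against transcript GC content in percent (horizontal axes), with 1 point for each of the 84 tested genes. The highest ratio in both panels is that of Cenpf, 3.57 and 3.59, and the genes above 1.5 all have a GC content of at most 45.1%.

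In the PE-CUR group, genes of chromosome separation rose almost throughout, while kinesins outside the mitotic list mostly fell. Of the 84 tested genes, 62 (73.8%) were higher and 12 (14.3%) lower at an adjusted p under 0.05, and 10 did not pass. The response of the whole transcriptome was broad: among 13014 tested genes 63.4% were called, 30.8% higher and 32.7% lower, so that a call alone says little and the direction and size carry the description. A change of at least 2-fold was called higher for 46 of the 84 genes against 6.37% of all genes, and lower for 5 of the 84 against 11.5%. The median log2 fold change of the PE-CUR group over the LPS group was 1.16 for the tested members and -0.03 for all tested genes. The groups did not overlap for 75 of the 84 genes, against 69.0% of all genes. Each count of calls by role below, and each mention of groups lying apart, is to be read beside these shares. Leaving out the 20 tested kinesins outside the mitotic list, 59 of 64 genes were higher, 0 were lower and 5 did not pass. Their median log2 fold change was 1.47. All 12 genes called lower were among the kinesins left out, so the 0 follows from that split. The lists were drawn up with earlier results of these data known. Of the 5 among the 64 that did not pass, Cenpf was at 2.96 and Cenpj at 0.57, and Aurkaip1, Mad2l1bp and Cenpb lay between -0.07 and 0.07. In bulk RNA, more cells in mitosis and more of each transcript per mitotic cell cannot be told apart. Whether replicates were grown as separate cultures is not stated, and p-values reflect the spread between these libraries alone, which may be technical.

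**Figure D2:**
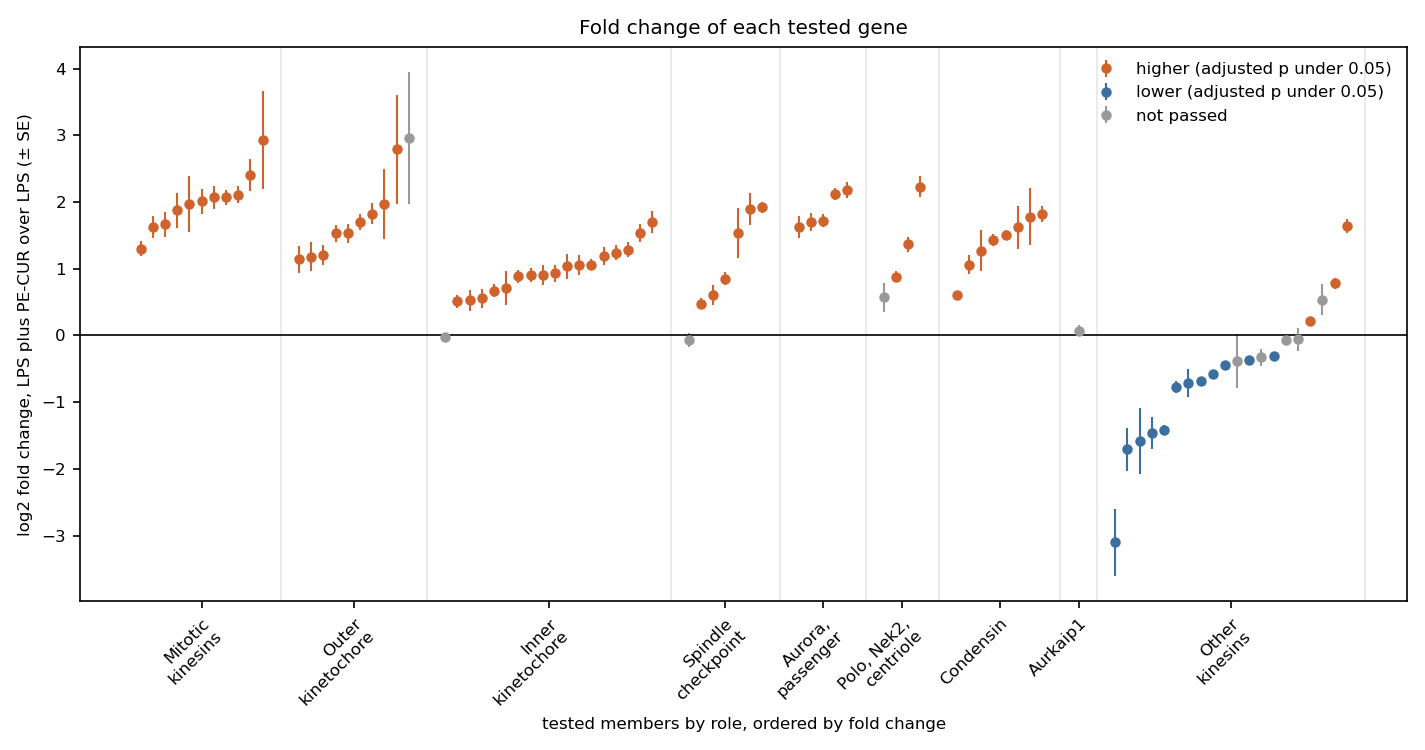
Log2 fold change of the PE-CUR group over the LPS group for each of the 84 tested genes, grouped by role and ordered by fold change, with 1 point per gene and bars of 1 standard error, coloured by whether the gene passed the adjusted p threshold. All 12 genes called lower stand among the other kinesins, and all 11 mitotic kinesins lie above 1.

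Promoters are shown here because members of the set moved together and promoters of mitotic genes are known for 2 short elements: the cell cycle homology region (CHR, searched as TTTGAA), bound by the DREAM and MuvB complexes, and the CCAAT box, bound by NF-Y. RefSeq (GRCm38.p6) held promoters for 77 of the 92 genes, 87 in all, each covering 250 bases before to 50 after a start, and both strands were searched. TTTGAA was in 36.8% of the members' promoters, against 17.9% of all 32851 promoters of that length and 12.7% of the promoters of tested genes. The mitotic kinesins held it in 9 of 10 promoters (90.0%) and the other kinesins in 3 of 23 (13.0%). Outer kinetochore and condensin promoters each held it in 62.5%, and inner kinetochore promoters in 19.0%. CCAAT was in 52.9% of the members' promoters and 37.4% of all promoters, and reached 71.4% in inner kinetochore genes. Both elements stood together in 26.4% of the members' promoters, 60.0% of the mitotic kinesins' and 6.95% of all promoters. The related form TTTAAA was in 14.9% of the members' promoters and 13.2% of all. A match is a description and shows no binding. Below are the 150 bases before the start of 6 genes, 5′ to 3′ on the gene's strand, with TTTGAA and CCAAT in capitals in either orientation (TTCAAA and ATTGG on the other strand). Kif11, Kif15, Cenpn and Bub3 rose, and Kif3b and Kif26b fell. The 4 that rose were picked after the search because they hold TTTGAA, as do 28 of 60 promoters of genes called higher and 4 of 21 inner kinetochore promoters, and so they do not represent all genes that rose. Bub3 has another RefSeq start further downstream, and the 150 bases before that one hold neither element. They lie at chr19:37376232-37376381 (Kif11), chr9:122950931-122951080 (Kif15), chr8:116921590-116921739 (Cenpn), chr7:131560220-131560369 (Bub3), chr2:153291266-153291415 (Kif3b) and chr1:178528975-178529124 (Kif26b), all on the plus strand. 
Kif11: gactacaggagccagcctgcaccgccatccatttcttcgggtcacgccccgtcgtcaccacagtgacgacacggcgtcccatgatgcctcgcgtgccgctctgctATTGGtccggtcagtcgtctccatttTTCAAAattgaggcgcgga
Kif15: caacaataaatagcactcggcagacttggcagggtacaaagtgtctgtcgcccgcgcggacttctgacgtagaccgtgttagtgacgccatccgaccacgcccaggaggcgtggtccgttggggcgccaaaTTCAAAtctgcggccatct
Cenpn: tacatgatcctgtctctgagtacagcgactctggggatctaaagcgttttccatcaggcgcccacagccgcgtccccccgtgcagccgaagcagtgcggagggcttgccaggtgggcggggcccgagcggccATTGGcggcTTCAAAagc
Bub3: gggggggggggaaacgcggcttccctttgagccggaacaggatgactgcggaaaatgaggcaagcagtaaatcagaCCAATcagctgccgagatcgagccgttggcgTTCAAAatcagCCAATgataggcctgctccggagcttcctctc
Kif3b: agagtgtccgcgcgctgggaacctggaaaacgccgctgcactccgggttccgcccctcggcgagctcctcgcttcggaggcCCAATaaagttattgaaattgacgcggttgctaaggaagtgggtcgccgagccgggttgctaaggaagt
Kif26b: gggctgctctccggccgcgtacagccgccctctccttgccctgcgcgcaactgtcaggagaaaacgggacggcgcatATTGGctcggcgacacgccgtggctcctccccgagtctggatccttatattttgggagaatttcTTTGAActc
In Kif11 the CHR begins at -19 and the CCAAT box at -45 relative to the start, and in Cenpn they begin at -9 and -18. Kif3b holds a CCAAT box and no TTTGAA in this window. Kif26b holds both and was called lower. It passed the filter on low counts through its LPS libraries, so a difference was built into its being tested. Whether the elements and the direction go together was not tested. TTTGAA was in 46.7% of the promoters of genes called higher and in 9.09% of those called lower. The latter is 1 of 11 promoters, that of Kif26b. All genes called lower were kinesins outside the mitotic list, so this contrast largely repeats the split by role and was not tested.

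The Aurora kinases and the chromosomal passenger complex rose about 3- to 5-fold. Aurka, the Aurora kinase of the spindle poles, was at 18.4, 22.2 and 18.0 CPM under LPS alone against 84.6, 82.0 and 87.6 CPM with PE-CUR added. Aurkb, the catalytic subunit of the passenger complex, was at 15.3, 19.6 and 13.8 CPM under LPS alone against 75.1, 71.3 and 74.3 CPM with PE-CUR added. The lowest PE-CUR library stood more than 3 times above the highest LPS library for both kinases. The rise was 2.12 ± 0.09 on the log2 scale for Aurka (SE, adjusted p = 4.07e-08) and 2.18 ± 0.12 for Aurkb (SE, adjusted p = 3.56e-07). Incenp, the scaffold of the complex, was at 59.5, 64.9 and 48.1 CPM under LPS alone against 194, 190.1 and 184 CPM with PE-CUR added (a log2 change of 1.72 with SE 0.10, adjusted p = 6.07e-07). Birc5 (survivin), its targeting subunit, was at 20.0, 24.5 and 15.1 CPM under LPS alone against 58.0, 63.5 and 61.8 CPM with PE-CUR added (a log2 change of 1.62 with SE 0.16, adjusted p = 0.000104). Tpx2, the activator of Aurora A on spindle microtubules, was at 64.7, 73.9 and 51.6 CPM under LPS alone against 188, 216 and 214 CPM with PE-CUR added (a log2 change of 1.70 with SE 0.13, adjusted p = 2.44e-05). All 5 tested genes of this list rose at least 2-fold with no overlap between the groups. Of all tested genes, 6.37% were called at least 2-fold higher and 69.0% showed no overlap. LPS replicate 3 was the lowest library for each of the 5 genes. Aurkc, the Aurora kinase of germ cells, had 1, 0 and 2 counts in LPS and 0, 0 and 1 in the PE-CUR group and was not tested.

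Plk1, the Polo kinase of mitotic entry and cytokinesis, was at 14.4, 18.2 and 11.4 CPM under LPS alone against 66.8, 67.4 and 71.2 CPM with PE-CUR added. Its 2.23 log2 rise (SE 0.16, adjusted p = 9.76e-06) was the largest among the mitotic kinases in the set, with LPS libraries spread from 11.4 to 18.2 CPM and PE-CUR libraries close to each other. Nek2, which separates the centrosomes, was at 37.5, 42.6 and 30.8 CPM under LPS alone against 90.6, 94.1 and 100.5 CPM with PE-CUR added (a log2 change of 1.36 with SE 0.11, adjusted p = 4.92e-06). Plk4, the kinase that starts centriole duplication, rose less, with 39.8, 36.2 and 32.4 CPM under LPS alone against 60.8, 71.0 and 67.9 CPM with PE-CUR added (a log2 change of 0.88 with SE 0.09, adjusted p = 8.17e-06). Both lay apart between the groups in every library. Cenpj, a centriole elongation factor despite its centromere name, was at 11.3, 9.17 and 8.76 CPM under LPS alone against 11.0, 19.5 and 12.8 CPM with PE-CUR added and did not pass (a log2 change of 0.57 with SE 0.22, adjusted p = 0.0531), its groups overlapping through PE-CUR replicate 1. It passed without LPS replicate 1 (adjusted p = 0.0421) or without PE-CUR replicate 1 (adjusted p = 0.00688).

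In the spindle checkpoint, 6 of 7 genes were called higher, against 30.8% of all tested genes, and 1 did not pass. The median log2 fold change was 0.85. Bub1b (BubR1), a subunit of the inhibitor that blocks the anaphase-promoting complex, was at 58.7, 58.1 and 47.6 CPM under LPS alone against 224, 196 and 201 CPM with PE-CUR added (a log2 change of 1.92 with SE 0.09, adjusted p = 1.07e-07). Mad2l1 (MAD2), its partner in that inhibitor, was at 38.4, 38.7 and 32.6 CPM under LPS alone against 57.5, 70.4 and 70.1 CPM with PE-CUR added (a log2 change of 0.85 with SE 0.10, adjusted p = 2.46e-05). Bub3, the adaptor that brings both Bub kinases to kinetochores, was at 89.5, 108 and 89.4 CPM under LPS alone against 133, 138 and 128 CPM with PE-CUR added (a log2 change of 0.48 with SE 0.08, adjusted p = 0.000292). All 3 lay apart between the groups in every library. Cdc20, the activator of the anaphase-promoting complex that the inhibitor holds, went from 13.3 to 62.5 CPM (a log2 change of 2.23 with SE 0.18, adjusted p = 3.41e-05). The point estimates of the 4 subunits thus ran from 0.48 for Bub3 to 2.23 for Cdc20. Ttk (MPS1), the kinase that starts the signal, was at 12.3, 11.5 and 9.37 CPM under LPS alone against 29.4, 52.6 and 40.7 CPM with PE-CUR added (a log2 change of 1.89 with SE 0.24, adjusted p = 0.000867). Bub1, a checkpoint kinase of the kinetochore, was at 45.9, 35.2 and 30.9 CPM under LPS alone against 69.2, 157 and 100.0 CPM with PE-CUR added (a log2 change of 1.54 with SE 0.37, adjusted p = 0.021). For both kinases PE-CUR replicate 2 was the highest library, and the Bub1 call ended without LPS replicate 2, LPS replicate 3 or PE-CUR replicate 3 (adjusted p = 0.0701, 0.0731 and 0.0523). Mad2l2, a MAD2 relative known mainly for DNA repair, was at 6.08 ± 0.983 CPM under LPS alone against 9.23 ± 0.511 CPM with PE-CUR added (a log2 change of 0.60 with SE 0.14, adjusted p = 0.00364). Mad2l1bp (p31comet), which removes MAD2 from the inhibitor, was at 11.6, 14.2 and 12.1 CPM under LPS alone against 11.7, 11.7 and 12.8 CPM with PE-CUR added and did not pass (a log2 change of -0.07 with SE 0.11, adjusted p = 0.61). Its groups overlapped, the only ones on this list that did.

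In the outer kinetochore, 9 of 10 genes were called higher, each by at least 2-fold, and the groups of all 10 lay apart. Among all tested genes, 30.8% were called higher, 6.37% by at least 2-fold, and the groups lay apart for 69.0%. Ska3, Ska2 and Ska1 form the complex that follows shrinking microtubule ends. Ska3 was at 8.85, 9.11 and 6.44 CPM under LPS alone against 27.1, 25.1 and 26.9 CPM with PE-CUR added (a log2 change of 1.70 with SE 0.13, adjusted p = 9.01e-07). Ska2 was at 9.74, 11.2 and 8.51 CPM under LPS alone against 23.2, 31.9 and 30.0 CPM with PE-CUR added (a log2 change of 1.53 with SE 0.14, adjusted p = 8.94e-06). In both, the highest LPS library reached less than 12 CPM and the lowest PE-CUR library more than 23 CPM. The NDC80 complex is the main microtubule grip. Nuf2 was at 25.2, 25.1 and 19.6 CPM under LPS alone against 58.8, 75.7 and 67.4 CPM with PE-CUR added (a log2 change of 1.53 with SE 0.12, adjusted p = 7.27e-06). Spc24 was at 7.77, 9.32 and 5.56 CPM under LPS alone against 26.8, 25.4 and 28.0 CPM with PE-CUR added (a log2 change of 1.83 with SE 0.16, adjusted p = 1.24e-05). Ndc80 itself was at 18.1, 16.7 and 12.8 CPM under LPS alone against 27.0, 44.4 and 36.3 CPM with PE-CUR added (a log2 change of 1.18 with SE 0.22, adjusted p = 0.00402), with PE-CUR libraries that differed more among themselves than those of Spc24. Ska1 and Spc25 also rose, by 1.20 and 1.14 on the log2 scale.

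3 very large outer kinetochore proteins carried the widest spread. Knl1, the scaffold onto which the checkpoint loads, was at 22.1, 13.0 and 12.0 CPM under LPS alone against 35.7, 98.3 and 50.3 CPM with PE-CUR added (a log2 change of 1.97 with SE 0.52, adjusted p = 0.0286). Cenpe, the kinesin that carries chromosomes to the equator, was at 21.9, 8.50 and 6.66 CPM under LPS alone against 37.1, 153 and 64.8 CPM with PE-CUR added (a log2 change of 2.79 with SE 0.82, adjusted p = 0.0404). Cenpf, a coiled-coil protein of the late G2 kinetochore, was at 19.0, 5.85 and 4.81 CPM under LPS alone against 25.5, 147 and 56.6 CPM with PE-CUR added and did not pass (a log2 change of 2.96 with SE 0.99, adjusted p = 0.0575). In each, LPS replicate 1 was the highest LPS library and PE-CUR replicate 2 the highest of its group, and even so the lowest PE-CUR library exceeded the highest LPS library. Cenpe lost its call without LPS replicate 2, LPS replicate 3, PE-CUR replicate 2 or PE-CUR replicate 3 (adjusted p = 0.121, 0.119, 0.0791 and 0.0783), and its log2 fold change ran from 2.09 without PE-CUR replicate 2 to 3.52 without LPS replicate 1. Knl1 lost its call without LPS replicate 2, LPS replicate 3 or PE-CUR replicate 3 (adjusted p = 0.0927, 0.0965 and 0.059). Cenpf passed without PE-CUR replicate 1 (adjusted p = 0.0468), and its fold change ran from 2.10 without PE-CUR replicate 2 to 3.88 without LPS replicate 1. With both libraries that stood apart left out, the 3 genes were called higher at log2 fold changes of 1.81 for Knl1, 2.78 for Cenpe and 2.98 for Cenpf (adjusted p = 3.79e-05, 0.0046 and 0.0272), in a fit chosen after the data were seen in which 28.7% of all tested genes were higher and 27.2% lower. Those libraries were singled out by their ratios in genes that include these 3. Leaving them out thus narrows the spread by construction, and these calls add no support.

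Inner kinetochore and centromere genes also rose: 17 of 18 were called higher, against 30.8% of all tested genes, and 8 of the 17 at least 2-fold. Their median log2 fold change was 0.92 against 1.62 for the outer kinetochore, a difference that was not tested. Cenpa, the histone variant that marks the centromere, was at 27.7, 30.1 and 20.6 CPM under LPS alone against 76.4, 73.2 and 77.5 CPM with PE-CUR added (a log2 change of 1.53 with SE 0.13, adjusted p = 1.22e-05). Cenpv was at 12.0, 12.0 and 11.9 CPM under LPS alone against 23.7, 26.0 and 25.0 CPM with PE-CUR added (a log2 change of 1.06 with SE 0.08, adjusted p = 1.21e-06). Cenpi, Cenpn and Cenpm belong to the constitutive centromere-associated network. Cenpi was at 12.2, 10.7 and 9.51 CPM under LPS alone against 23.1, 28.0 and 28.0 CPM with PE-CUR added (a log2 change of 1.29 with SE 0.12, adjusted p = 3.48e-06). Cenpn was at 7.95, 10.6 and 9.37 CPM under LPS alone against 20.7, 22.6 and 22.6 CPM with PE-CUR added (a log2 change of 1.24 with SE 0.11, adjusted p = 3.99e-06). Cenpm, among the lowest members at under 3 CPM in LPS, was at 2.64, 2.99 and 2.27 CPM under LPS alone against 7.66, 8.63 and 9.43 CPM with PE-CUR added (a log2 change of 1.70 with SE 0.16, adjusted p = 5.25e-06). None of these 5 genes had an LPS library within the range of the PE-CUR group. Cenpo, Cenpu, Cenpl, Cenpw, Cenph, Cenpx, Cenps, Cenpp, Cenpt and Cenpc1 also rose, from 0.51 for Cenpt to 1.20 for Cenpu. Cenpq rose by 0.53, a call that ended without LPS replicate 2 or LPS replicate 3 (adjusted p = 0.0594 and 0.0597). Cenpk rose by 0.71 with overlapping groups, and its call ended without LPS replicate 2, LPS replicate 3, PE-CUR replicate 2 or PE-CUR replicate 3 (adjusted p = 0.0844, 0.104, 0.0722 and 0.0822). Cenpb, which binds satellite DNA in cycling and resting cells alike, was at 175, 192 and 182 CPM under LPS alone against 173, 174 and 194 CPM with PE-CUR added and did not pass (log2 fold change -0.02, SE 0.06, adjusted p = 0.79). Its groups overlapped, unlike those of Cenpa.

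All 8 condensin genes were called higher, against 30.8% of all tested genes, and 7 of the 8 rose at least 2-fold. Their median log2 fold change was 1.47. Ncapd3, a condensin II subunit, was at 52.7, 52.4 and 44.4 CPM under LPS alone against 135, 146 and 142 CPM with PE-CUR added (a log2 change of 1.5 with SE 0.08, adjusted p = 1.08e-07). Ncaph, the kleisin of condensin I, was at 30.6, 27.3 and 23.5 CPM under LPS alone against 72.5, 75.5 and 71.3 CPM with PE-CUR added (a log2 change of 1.43 with SE 0.09, adjusted p = 3.68e-07). Ncapd2, a regulatory subunit of condensin I, was at 36.0, 40.2 and 28.0 CPM under LPS alone against 126, 120.1 and 122 CPM with PE-CUR added (a log2 change of 1.82 with SE 0.12, adjusted p = 2.86e-06). These subunits had tight groups that lay far apart. Ncaph2, the kleisin of condensin II, rose the least, with 74.4, 83.8 and 75.8 CPM under LPS alone against 124, 114 and 117 CPM with PE-CUR added (a log2 change of 0.60 with SE 0.07, adjusted p = 1.65e-05). Smc2 and Smc4 are the ATPase arms that both condensins share. Smc2 was at 59.7, 43.4 and 42.0 CPM under LPS alone against 102, 206 and 136 CPM with PE-CUR added (a log2 change of 1.62 with SE 0.33, adjusted p = 0.0113). Smc4 was at 43.9, 27.2 and 25.8 CPM under LPS alone against 68.7, 162 and 102 CPM with PE-CUR added (a log2 change of 1.78 with SE 0.43, adjusted p = 0.0217). LPS replicate 1 and PE-CUR replicate 2 were the highest libraries of their groups for both arms, and the groups did not overlap. Smc4 lost its call without LPS replicate 2, LPS replicate 3 or PE-CUR replicate 3 (adjusted p = 0.0727, 0.0764 and 0.0547). Ncapg rose by 1.27 and lost its call without LPS replicate 2 or LPS replicate 3 (adjusted p = 0.0658 and 0.0689), and Ncapg2 rose by 1.06.

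Mitotic kinesins had the highest median log2 fold change of the roles in the set, 2.01, a ranking that was not tested. All 11 were called higher, each by at least 2-fold. Among all tested genes, 30.8% were called higher and 6.37% by at least 2-fold. Kif14, needed for cytokinesis, was at 8.72, 10.8 and 7.63 CPM under LPS alone against 38.1, 38.0 and 37.7 CPM with PE-CUR added (a log2 change of 2.07 with SE 0.11, adjusted p = 1.59e-07). Kif2c (MCAK), which takes microtubules apart at centromeres, was at 11.8, 13.5 and 9.18 CPM under LPS alone against 45.8, 50.9 and 51.6 CPM with PE-CUR added (a log2 change of 2.11 with SE 0.13, adjusted p = 6.92e-07). Kif23, a subunit of the centralspindlin complex of the midzone, was at 79.2, 76.4 and 61.5 CPM under LPS alone against 158, 192 and 185 CPM with PE-CUR added (a log2 change of 1.30 with SE 0.11, adjusted p = 1.25e-05). Kif14 libraries were nearly equal within the PE-CUR group, and Kif23, the most abundant of these motors per length, rose the least. Kif22, a motor that pushes chromosome arms, was at 13.3, 16.2 and 9.76 CPM under LPS alone against 51.9, 53.6 and 59.5 CPM with PE-CUR added (a log2 change of 2.07 with SE 0.18, adjusted p = 4.53e-05). Kif20a, which brings the passenger complex to the midzone, was at 25.8, 29.2 and 17.7 CPM under LPS alone against 90.3, 101 and 102 CPM with PE-CUR added (a log2 change of 2.01 with SE 0.19, adjusted p = 0.000164). Kif11 (Eg5), which pushes the spindle poles apart, was at 29.9, 27.5 and 18.7 CPM under LPS alone against 71.1, 113 and 95.2 CPM with PE-CUR added (a log2 change of 1.88 with SE 0.26, adjusted p = 0.00207). In all 3 the lowest LPS library was replicate 3, and no LPS library reached the level of any PE-CUR library. Kif4, Kif18b and Kif15 rose by 1.63, 1.67 and 2.41. Kif18a, which damps chromosome oscillation, was at 11.5, 6.49 and 6.30 CPM under LPS alone against 22.5, 46.2 and 26.2 CPM with PE-CUR added (a log2 change of 1.97 with SE 0.42, adjusted p = 0.0122). Kif20b, a motor of late cytokinesis, was at 13.3, 6.03 and 5.69 CPM under LPS alone against 30.9, 114 and 44.7 CPM with PE-CUR added (a log2 change of 2.92 with SE 0.73, adjusted p = 0.0247), the largest rise among called members. Kif20b lost its call without LPS replicate 2 or LPS replicate 3 (adjusted p = 0.0841 and 0.0885), and its fold change was 2.22 without PE-CUR replicate 2.

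The other kinesins went mostly the opposite way. Of 26 in the table, 20 were tested, of which 12 fell, 3 rose and 5 did not pass, with a median log2 fold change of -0.41. Over all tested genes 32.7% were lower and 30.8% higher. Kif5a, a heavy chain of kinesin-1 known from neurons, was at 86.3, 90.6 and 93.1 CPM under LPS alone against 36.7, 33.1 and 30.8 CPM with PE-CUR added (a log2 change of -1.42 with SE 0.08, adjusted p = 1.31e-07). Kif1c, a vesicle motor of the kinesin-3 family, was at 189, 208 and 210.0 CPM under LPS alone against 125, 125 and 129 CPM with PE-CUR added (a log2 change of -0.68 with SE 0.06, adjusted p = 2.81e-06). Kif1b, its relative that carries mitochondria and vesicles, was at 111, 107 and 111 CPM under LPS alone against 73.9, 73.7 and 72.9 CPM with PE-CUR added (a log2 change of -0.58 with SE 0.05, adjusted p = 5.1e-06). Each had tight groups with a clear gap between them. Kif13b, another kinesin-3, was at 38.9, 38.9 and 40.9 CPM under LPS alone against 26.2, 21.1 and 22.2 CPM with PE-CUR added (a log2 change of -0.77 with SE 0.09, adjusted p = 2.2e-05). The heterotrimeric kinesin-2 motor of cilia and vesicles fell modestly in its subunits. Kif3b was at 83.6 ± 2.13 CPM under LPS alone against 64.4 ± 1.13 CPM with PE-CUR added (a log2 change of -0.38 with SE 0.06, adjusted p = 0.000172). Kif3a was at 53.4 ± 3.31 CPM under LPS alone against 39.1 ± 0.972 CPM with PE-CUR added (a log2 change of -0.45 with SE 0.07, adjusted p = 0.000187). Kif3c was at 128 ± 0.628 CPM under LPS alone against 104 ± 6.91 CPM with PE-CUR added (a log2 change of -0.31 with SE 0.06, adjusted p = 0.0012), and its call ended with an offset for GC content and length (adjusted p = 0.0537). No library of the PE-CUR group reached the LPS range in these 3 genes.

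Lower-expressed kinesins made up the rest of those that fell. Kif13a was at 5.16 ± 0.735 CPM under LPS alone against 1.88 ± 0.591 CPM with PE-CUR added (a log2 change of -1.46 with SE 0.24, adjusted p = 0.000321). Kif9 was at 2.98 ± 0.606 CPM under LPS alone against 0.898 ± 0.373 CPM with PE-CUR added (a log2 change of -1.71 with SE 0.32, adjusted p = 0.000772). Kif21a was at 5.20 ± 1.31 CPM under LPS alone against 3.17 ± 0.322 CPM with PE-CUR added (a log2 change of -0.71 with SE 0.21, adjusted p = 0.0106), and its call ended without LPS replicate 1 (adjusted p = 0.074). All 3 were under 6 CPM on average in both groups, and their libraries did not overlap. Kif26b was at 0.553, 1.34 and 0.94 CPM under LPS alone against 0.0923, 0.0883 and 0.144 CPM with PE-CUR added (a log2 change of -3.10 with SE 0.50, adjusted p = 0.000274), and on the log2(FPKM + 1) scale it did not pass (adjusted p = 0.123). Kif19a was at 0.799, 0.487 and 0.719 CPM under LPS alone against 0.339, 0.236 and 0.0722 CPM with PE-CUR added (a log2 change of -1.58 with SE 0.49, adjusted p = 0.0152). Both passed the filter on low counts through their LPS libraries, so a difference was built into their being tested, and Kif19a lost its call without LPS replicate 1 or LPS replicate 3 (adjusted p = 0.064 and 0.0554).

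3 kinesins outside the mitotic list rose. Kif24, a centriolar kinesin that restrains cilia, was at 8.48, 7.07 and 7.16 CPM under LPS alone against 25.5, 22.4 and 23.0 CPM with PE-CUR added (a log2 change of 1.64 with SE 0.11, adjusted p = 3.93e-07). Kif21b, a motor that slows microtubule growth, was at 64.2, 65.2 and 62.5 CPM under LPS alone against 125, 101 and 104 CPM with PE-CUR added (a log2 change of 0.78 with SE 0.08, adjusted p = 9.73e-06). Kif16b, which moves early endosomes, was at 48.7 ± 3.08 CPM under LPS alone against 56.3 ± 2.74 CPM with PE-CUR added (a log2 change of 0.21 with SE 0.07, adjusted p = 0.0237). The groups lay apart for each, but the Kif16b call ended with scaling by library size alone (adjusted p = 0.0853). Kif5b, the ubiquitous kinesin-1 heavy chain, was at 303, 249 and 269.9 CPM under LPS alone against 187, 257 and 209 CPM with PE-CUR added and did not pass (a log2 change of -0.33 with SE 0.13, adjusted p = 0.0551). Its groups overlapped through PE-CUR replicate 2, without which it was lower at an adjusted p of 0.00129. Kif2a, a microtubule depolymerase used inside and outside mitosis, was at 72.9, 67.5 and 73.4 CPM under LPS alone against 68.7, 71.4 and 63.9 CPM with PE-CUR added and did not pass (a log2 change of -0.07 with SE 0.07, adjusted p = 0.397). Kif17, Kif5c and Kif7 did not pass either, at log2 fold changes of 0.53, -0.38 and -0.06.

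**Figure D3:**
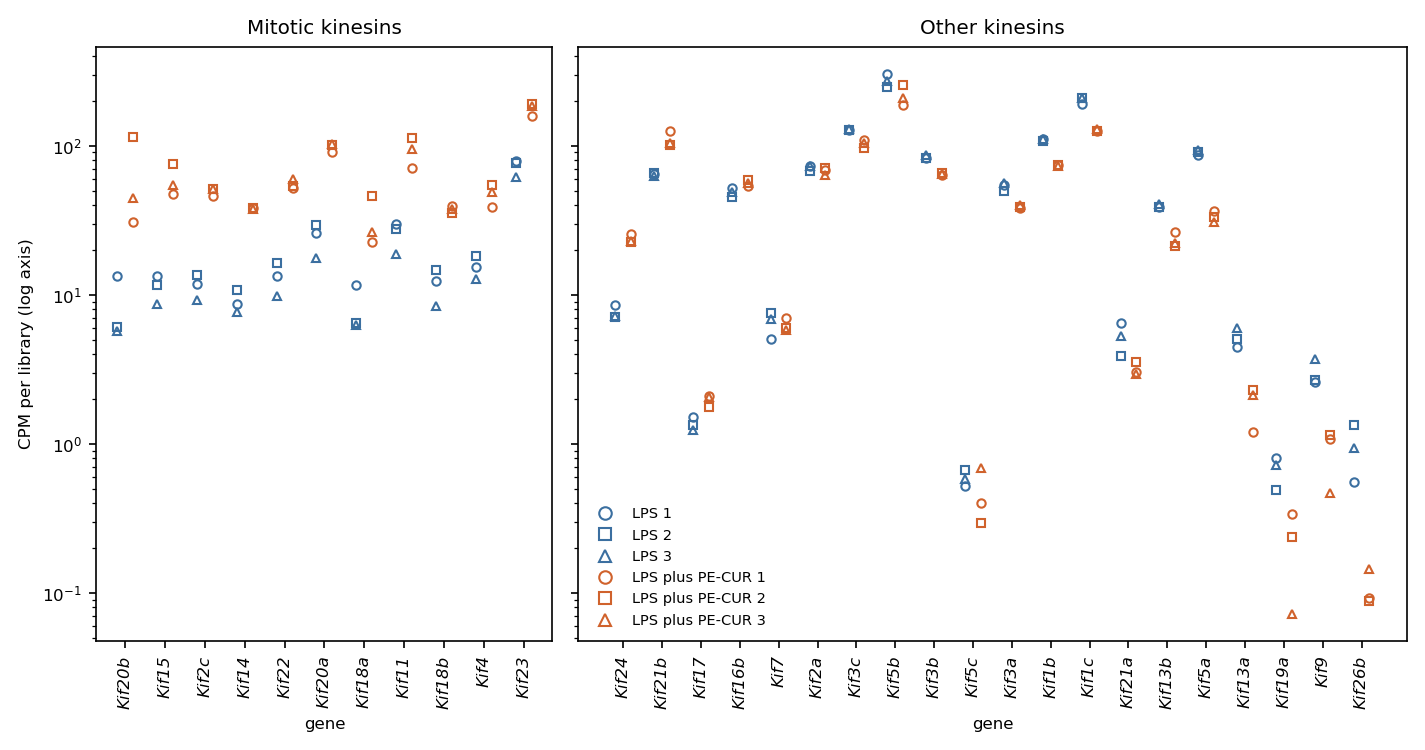
CPM of each tested kinesin in each library on a log axis, with 3 LPS and 3 PE-CUR libraries per gene and mitotic kinesins set apart from the others. In mitotic kinesins the PE-CUR points stand above the LPS points without overlap, and Kif5a, Kif1c and Kif1b show the reverse.

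8 members had too few counts to test. Kif12 had 2, 0 and 1 counts in LPS and 0 in each PE-CUR library, Kif1a had 7, 2 and 1 against 1, 0 and 0, and Kif26a had 0, 0 and 4 against 0 in each. Kif19b had 0, 1 and 2 against 4, 0 and 0, Kif27 had 1, 0 and 0 against 0, 1 and 0, and Kif28 had 1, 0 and 0 against 0 in each. Kif16bos, a non-coding RNA on the strand opposite to Kif16b and not overlapping it, matches by its symbol and had 4, 0 and 2 against 2, 2 and 4. Aurkc completes the 8. Aurkaip1, a mitochondrial ribosome protein that matches by prefix alone, was tested at 37.5 ± 0.292 CPM under LPS alone against 39.4 ± 3.67 CPM with PE-CUR added and did not pass (a log2 change of 0.07 with SE 0.08, adjusted p = 0.453).

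Levels can be compared between genes only per length, here as FPKM, the deposited counts scaled by gene length and library total. Under LPS alone Cenpb stood first, at 67.0 ± 3.11 FPKM under LPS alone against 63.5 ± 3.68 FPKM with PE-CUR added. Kif5b and Bub3 came next, within their spread of each other. Kif5b was at 46.3 ± 4.61 FPKM under LPS alone against 35.3 ± 5.06 FPKM with PE-CUR added. Bub3 was at 44.3 ± 4.70 FPKM under LPS alone against 59.3 ± 2.36 FPKM with PE-CUR added. Kif1c, at 29.3 ± 1.71 FPKM under LPS alone against 17.6 ± 0.417 FPKM with PE-CUR added, held place 4 under LPS alone and place 28 with PE-CUR added. In the PE-CUR group, Cenpb stood first again, and Bub3, Incenp, Bub1b and Kif23 came next at 59.3, 57.2, 55.2 and 50.2 FPKM. Library ranges overlapped between Cenpb, Bub3 and Bub1b, between Incenp and both Bub3 and Bub1b, and between Bub1b and Kif23, so the order of these neighbours is not settled. Within complexes the subunits were not level with each other. In the NDC80 complex Nuf2 went from 9.57 to 26.6 FPKM on average and Ndc80 from 7.33 to 15.9 FPKM. In the passenger complex Incenp, at 18.0 ± 2.60 FPKM under LPS alone against 57.2 ± 2.65 FPKM with PE-CUR added, stood above Birc5, at 5.91 ± 1.37 FPKM under LPS alone against 17.5 ± 0.399 FPKM with PE-CUR added, in every library. Of the condensin II subunits, Ncaph2 went from 23.6 to 34.5 FPKM and Ncapd3 from 5.89 to 16.0 FPKM. Within the checkpoint complex, mean Mad2l1 went from 17.8 to 30.9 FPKM and mean Bub1b from 15.2 to 55.2 FPKM, so the order of these means was reversed between the groups. Under LPS alone the library ranges overlapped, at 16.0 to 18.8 FPKM for Mad2l1 and 13.3 to 16.2 FPKM for Bub1b. The order also depends on the 1 length per gene behind the deposited FPKM, and other lengths were not tried.

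**Figure D4:**
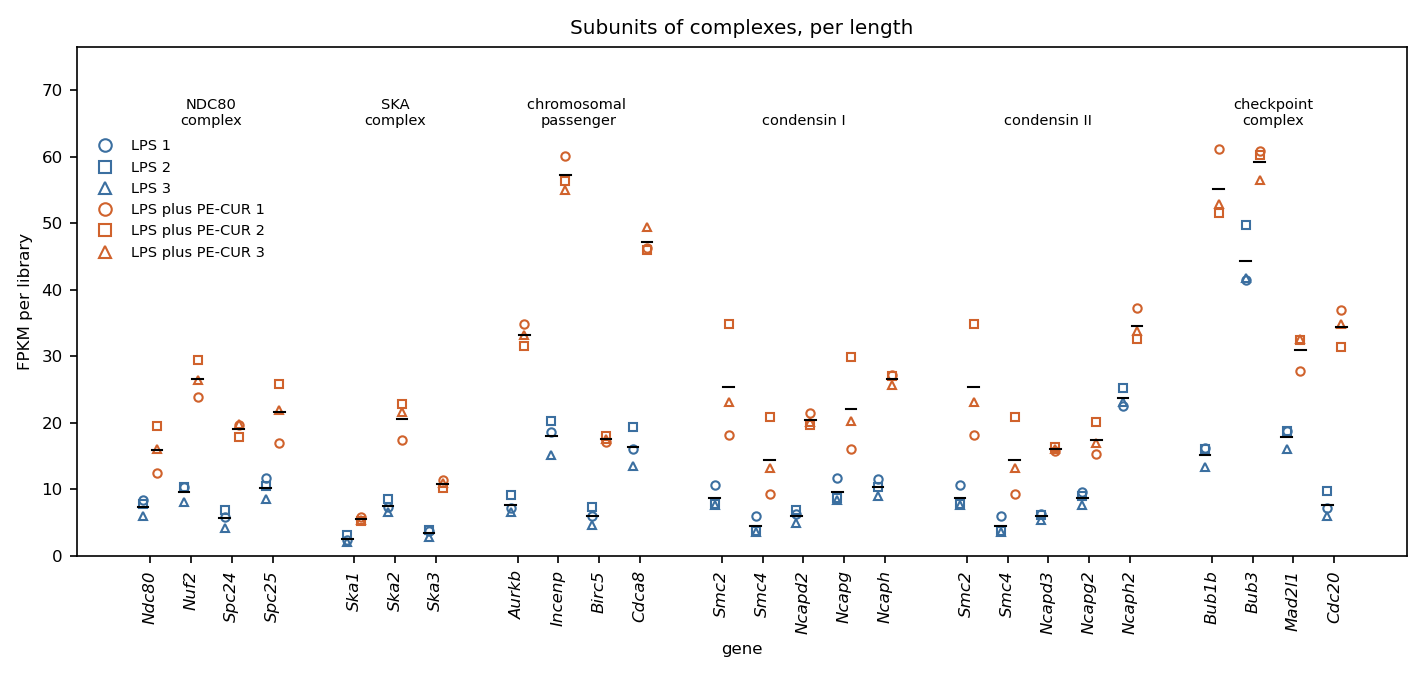
FPKM of the subunits of 6 complexes in each library, with horizontal bars at the group means over 3 libraries (Smc2 and Smc4 appear in both condensins, and Cdca8 and Cdc20 are shown as partners). The mean of Bub1b lies below that of Mad2l1 in LPS and above it in the PE-CUR group, and Smc2 and Smc4 show PE-CUR replicate 2 above the other libraries.

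Partners of these genes, named from 4 lists of mitosis genes outside the symbol rule, were mostly higher: 68 of 88 tested were higher, 3 lower and 17 did not pass, with a median log2 fold change of 1.0. Over all tested genes 30.8% were higher and 32.7% lower, with a median of -0.03, and each count below is to be read beside these shares. Checkpoint and kinetochore partners rose in 18 of 22, among them Pmf1, a MIS12 complex subunit, from 16.8 to 58.6 CPM (a log2 change of 1.80 with SE 0.07, adjusted p = 4.07e-08), Trip13, the ATPase that recycles MAD2, from 9.19 to 35.6 CPM (a log2 change of 1.96 with SE 0.10, adjusted p = 1.21e-07), and Haspin, a histone H3 kinase, from 6.97 to 19.7 CPM (a log2 change of 1.5 with SE 0.09, adjusted p = 3.3e-07). Zwint, which links KNL1 to the checkpoint, was the gene of that list that fell, from 144 to 112 CPM (a log2 change of -0.36 with SE 0.07, adjusted p = 0.0011). Spindle and midzone genes rose in 15 of 16, and those of smallest p were Tacc3 (25.9 to 72.4 CPM), Spag5 (31.3 to 84.6 CPM) and Kifc1, a minus-end kinesin outside the symbol rule (11.1 to 34.9 CPM), at log2 fold changes of 1.49, 1.43 and 1.65. The list of anaphase onset and cohesin was more mixed, with 17 of 30 higher, 2 lower and 11 not passing. Espl1 (separase) rose there from 12.6 to 72.7 CPM (a log2 change of 2.53 with SE 0.13, adjusted p = 7.03e-07), Anapc1 from 187 to 336 CPM (a log2 change of 0.84 with SE 0.06, adjusted p = 6.06e-07) and the cohesin arm Smc1a from 89.0 to 181 CPM (a log2 change of 1.02 with SE 0.08, adjusted p = 1.3e-06). Anapc16 fell from 32.0 to 23.1 CPM (a log2 change of -0.47 with SE 0.10, adjusted p = 0.00127), and Anapc11 fell from 37.6 to 29.7 CPM (a log2 change of -0.34 with SE 0.10, adjusted p = 0.0146), the latter call ending without LPS replicate 2 (adjusted p = 0.118) or PE-CUR replicate 1 (adjusted p = 0.0558). These lists hold genes of the anaphase-promoting complex that work outside mitosis too.

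Drivers of mitotic transcription and proliferation markers were called higher for 18 of 20 tested genes, against 30.8% of all tested genes, with a median log2 fold change of 1.49. Foxm1, the forkhead factor of G2 genes, rose from 26.1 to 81.9 CPM (a log2 change of 1.65 with SE 0.09, adjusted p = 1.86e-07). Lin54, the DREAM and MuvB subunit that reads the CHR, rose from 28.0 to 53.3 CPM (a log2 change of 0.93 with SE 0.06, adjusted p = 6.02e-07), and E2f7, an atypical E2F repressor, from 3.68 to 14.7 CPM (a log2 change of 1.99 with SE 0.14, adjusted p = 6.14e-07). Mki67, the proliferation marker Ki-67, was at 96.3, 47.1 and 36.5 CPM under LPS alone against 194, 677 and 321 CPM with PE-CUR added (a log2 change of 2.73 with SE 0.70, adjusted p = 0.0266). Its libraries were ordered like those of Cenpf, and the call ended without LPS replicate 2, LPS replicate 3, PE-CUR replicate 2 or PE-CUR replicate 3 (adjusted p = 0.0904, 0.0859, 0.0507 and 0.0588). The list of cargo adaptors of transport kinesins also held Dync1h1 and Dctn1, which belong to the dynein motor and its partner dynactin. Of its 11 tested genes, 0 were higher, 9 lower and 2 did not pass, with a median log2 fold change of -0.31. Over all tested genes 32.7% were lower and 30.8% higher. Dync1h1 and Dctn1 were among those called lower, Dync1h1 at a log2 change of -0.31 (SE 0.06, adjusted p = 0.000812). With the offset for GC content and length, the calls of Klc1, Kifap3 and Trak2 ended (adjusted p = 0.153, 0.0502 and 0.0957), and Trak1 was called higher (adjusted p = 0.000155). The Kifap3 call also ended without LPS replicate 2 (adjusted p = 0.0745) and the Klc1 call with 4 libraries (adjusted p = 0.062), and Trak1 was called higher without PE-CUR replicate 2 (adjusted p = 0.0289). Mapk8ip1, the JIP1 scaffold that binds kinesin-1, fell from 7.42 to 0.701 CPM (a log2 change of -3.38 with SE 0.21, adjusted p = 3.16e-07), the kinesin light chain Klc3 fell from 10.9 to 4.01 CPM (a log2 change of -1.44 with SE 0.16, adjusted p = 1.74e-05), and Dctn1, the large dynactin subunit, fell from 115 to 89.2 CPM (a log2 change of -0.37 with SE 0.07, adjusted p = 0.000593).

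Of the 91 members with a RefSeq position, 47 overlap another annotated gene, such as Kif20a with Cdc23, Kif18a with Mettl15, Kif4 with Pdzd11 and Bub3 with Fgfr2. The strand setting of the counting is not given in the sources used here, and reads of such pairs cannot be separated. The pseudogenes Kif22-ps and Kif4-ps are annotated and have no row in the count table, and how reads shared with them were counted is likewise not given.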

How the data were processed

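Bulk RNA sequencing measured 6 libraries, 3 per group. Per the submitters' processing notes, the authors used fastp, HTSeq, SAMtools and DESeq2 with mm10. The aligner is not given in the sources used here, nor are the annotation, the strand setting and tool versions. The authors deposited raw gene counts and FPKM values. The deposited FPKM are the same counts divided by library total and 1 length per gene (within 0.0001 for 100% of the genes), so they add no independent evidence. The counts were fitted with edgeR 4.0.16 (R 4.3.3, limma 3.58.1): filterByExpr, TMM scaling (library factors 0.964 to 1.03), the quasi-likelihood test across 13014 genes, and Benjamini-Hochberg adjustment over all of them at 0.05. CPM are scaled by TMM. Each log2 fold change is that of the PE-CUR group over the LPS group, and its standard error is the absolute fold change divided by the square root of F.

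The members and gene lists were chosen with earlier results of these data known. Named in each role were up to 4 called genes of smallest p in the majority direction and 2 in the other, a fixed set of 24 core genes, every gene called lower, and from each related list up to 3 and 2 genes. GC content and length are those of the longest GENCODE M21 transcript. Coordinates (1-based) and promoters come from RefSeq GRCm38.p6. Alternatives were DESeq2 1.42.0, limma-voom, other scalings and filters, FPKM on log scales, a replicate block and leaving out libraries. Added after seeing the data were a fit of 4 libraries and a GC and length offset.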

Additional observations from a re-analysis of the deposited data

How the results depend on the processing

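Over 18 alternatives none of the 74 called members changed sign, 4 members that did not pass did so without passing (Cenpb, Kif2a, Kif7 and Mad2l1bp), and 19 of the 84 tested members changed their side of the threshold in at least 1 of them. The members called higher numbered 62, and 54 to 64 when 1 library was left out, and those called lower numbered 12, and 10 to 13. Of the 74 called members, 71 kept call and direction with LPS replicate 1 and PE-CUR replicate 2 both left out. Those libraries were singled out by ratios in members, so that fit is no independent check. Related mitosis genes called lower numbered 3, and 5 with library size alone, with log2(FPKM + 1) and with log2(FPKM + 0.1). The offset for GC content and length called 65 members higher and 12 lower, and moved the split over all genes from 4004 higher and 4252 lower to 4912 and 3384, with the median log2 fold change moving from -0.03 to 0.09. The labels state no pairing of same-numbered replicates. Deviations of same-numbered libraries from their group means correlated at -0.102, -0.178 and -0.048, and LPS replicate 1 correlated best with PE-CUR replicate 2 (0.169). With 3 libraries per group, these values cannot show whether same-numbered libraries shared a batch or culture. With the replicate number as a block, 52 members were higher and 12 lower, and of the condensin genes 5 were called in place of 8. Bub1, Cenpe, Cenpk, Kif16b, Kif18a, Kif20b, Knl1, Ncapg, Smc2 and Smc4 did not pass under that block. Cenpe was also not called with limma-voom (adjusted p = 0.0554), whereas DESeq2 called Cenpf (adjusted p = 0.00239), Cenpj (adjusted p = 0.00565) and Kif5b (adjusted p = 0.0143). Depth limits the 8 members that were not tested and Kif26b and Kif19a, which were near or under 1 CPM.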
